A study of Oryza sativa Japonica Group with 9 samples.

Results

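Transcripts of 9 rice genes that cleave sucrose were examined in developing grains: the sucrose synthase genes SUS1 to SUS4, the cell wall invertase genes CIN1, CIN2 (also called GIF1) and CIN3, and the vacuolar invertase genes INV2 and INV3. They were chosen by locus, and all 9 were found among the 55986 gene models of the deposited table. RNA sequencing had been applied to caryopses of the japonica cultivar Nipponbare in 3 groups of 3 libraries: plants edited in GSK5 (genotype label GSK5-/-, a GSK3-like protein kinase), plants edited in ARF4 (genotype label ARF4-/-, an auxin response factor) and unedited wild type (WT). The sample labels put the harvest at day 9 after flowering and the series text at days 7 to 8. How many edited lines or plants stand behind a group is not given in the labels, so the spread between libraries may be technical, and the p-values measure only that spread.

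Sucrose imported into the grain from the phloem has to be split before its carbon can be used. Sucrose synthase does so reversibly in the cytosol, with UDP, and yields UDP-glucose and fructose; invertases hydrolyse sucrose irreversibly to glucose and fructose, in the cell wall space or in the vacuole according to the isoform. In cereal grains, invertase activity is generally linked to early growth and cell expansion and sucrose synthase to the later filling with starch. CIN2 is the gene of GRAIN INCOMPLETE FILLING 1, a cell wall invertase needed for normal grain filling in rice.

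Levels are given in FPKM, counts of fragments corrected for gene length and library size, so that genes can be set against each other per length. The FPKM of all genes summed to 585414 at the lowest and 626390 at the highest, and the shallowest library had 70.5% of the depth of the deepest. The locus entered as GSK5 (LOC_Os03g62500, a name not found in the annotation used) averaged 32.2 ± 1.56 FPKM in GSK5-edited grain and 39.8 ± 7.95 FPKM in WT (SD, n = 3 each; log2 change -0.28, limma adjusted p = 0.395). In ARF4-edited grain the ARF4 transcript (LOC_Os01g70270) fell to 50.5 ± 3.4 FPKM, against 84 ± 14.2 FPKM in WT (log2 change -0.71, limma adjusted p = 0.0388). WT replicate 3 had a mean Pearson r of 0.941 with the GSK5 libraries against 0.91 with its own group, and ARF4 replicate 3 had 0.93 against 0.901, across genes, which are not independent replicates. The tissue label was checked against markers. Of 11 endosperm genes 6 reached 1 FPKM in every library and 2 (NF-YB1 and the locus entered as SSIIa) in none; their sum ran from 195.1 to 212.1 FPKM in GSK5-edited, from 136.7 to 144.4 in ARF4-edited and from 116.7 to 148.4 in WT grain. The loci of that list did not move as one. The locus entered as AGPL2 rose in GSK5-edited grain (81.2 FPKM against 24.8 in WT, limma adjusted p = 0.00169) while AGPS2 averaged 40.3 and 39.8 FPKM. GluA1 and the locus entered as RPBF were higher in ARF4-edited grain but low there too. GluA1 had 8.07 FPKM against 0.327 in WT (limma adjusted p = 0.00184), and RPBF 2.15 against 0.0267 (limma adjusted p = 0.00714). Both reached 1 FPKM in the 3 ARF4 libraries only, so they entered the test through the group where they are high. Their adjusted p-values are therefore no independent support for a rise. GBSSI, the granule-bound starch synthase that is abundant in starch-filling endosperm, ranged from 0.22 to 4.16 FPKM. It had 4.16, 1.93 and 1.36 FPKM in GSK5-edited grain and at most 1.2 in the other libraries. GBSSI was not called in GSK5 against WT (log2 change 1.24, limma adjusted p = 0.1). In that comparison 18.3% of all genes tested were higher without overlap. It reached 1 FPKM in the GSK5 libraries and ARF4 replicate 2 only. GBSSI, NF-YB1 and SSIIa were thus low or near 0 under a label of grain past the first week. Other starch loci of the list were not. The locus entered as BEIIb ran from 30.67 to 51.45 FPKM and that entered as SSIIIa from 4.06 to 16.11. Summed green pericarp markers ran from 908.5 to 1069 FPKM in GSK5-edited, from 1161 to 2551 in ARF4-edited and from 871 to 1318 in WT grain. CAB1R and CAB2R carried most of these sums; the locus entered as RBCS2 fell in ARF4-edited grain (28.9 FPKM against 111.5 in WT, adjusted p = 0.0386) and RCA in GSK5-edited grain (108.8 against 198, adjusted p = 0.0399). MADS29, a nucellus marker, ran from 49.5 to 54.5 FPKM in GSK5-edited, from 22.5 to 70.3 in ARF4-edited and from 62 to 78.6 in WT grain. The 3 embryo markers summed to between 137.5 and 176.7 FPKM in GSK5-edited, 5.55 and 41.8 in ARF4-edited and 17.9 and 47.4 in WT grain. In GSK5-edited grain that sum was nearly all LEA3 (149.6, 174.1 and 135.6 FPKM), while the locus entered as OLE16 averaged 2.34 FPKM there and 4.76 in WT, and OLE18 stayed under 1 FPKM in every library. In such whole-tissue RNA, fewer cells of a type and less RNA per cell cannot be told apart, and the part of tissue makeup in the results below was not tested.

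Over all 9 libraries SUS2 had the highest mean level, 143.9 FPKM, followed by SUS1 (83.1), SUS4 (76.6), INV3 (62.4), CIN2 (24.3), CIN1 (17.6), SUS3 (7.71), INV2 (5.81) and CIN3 (0.669). Several neighbours in this order were not separated by it. SUS1 exceeded SUS4 in 2 of 9 libraries only, SUS4 exceeded INV3 in 5 and CIN2 exceeded CIN1 in 5. SUS2 lay above SUS1 in 7 libraries, the exceptions being ARF4 replicates 1 and 2, and SUS3 above INV2 in 7. INV3 lay above CIN2 in 8, all but WT replicate 3. CIN1 exceeded SUS3 and INV2 exceeded CIN3 in all 9.

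**Figure D1:**
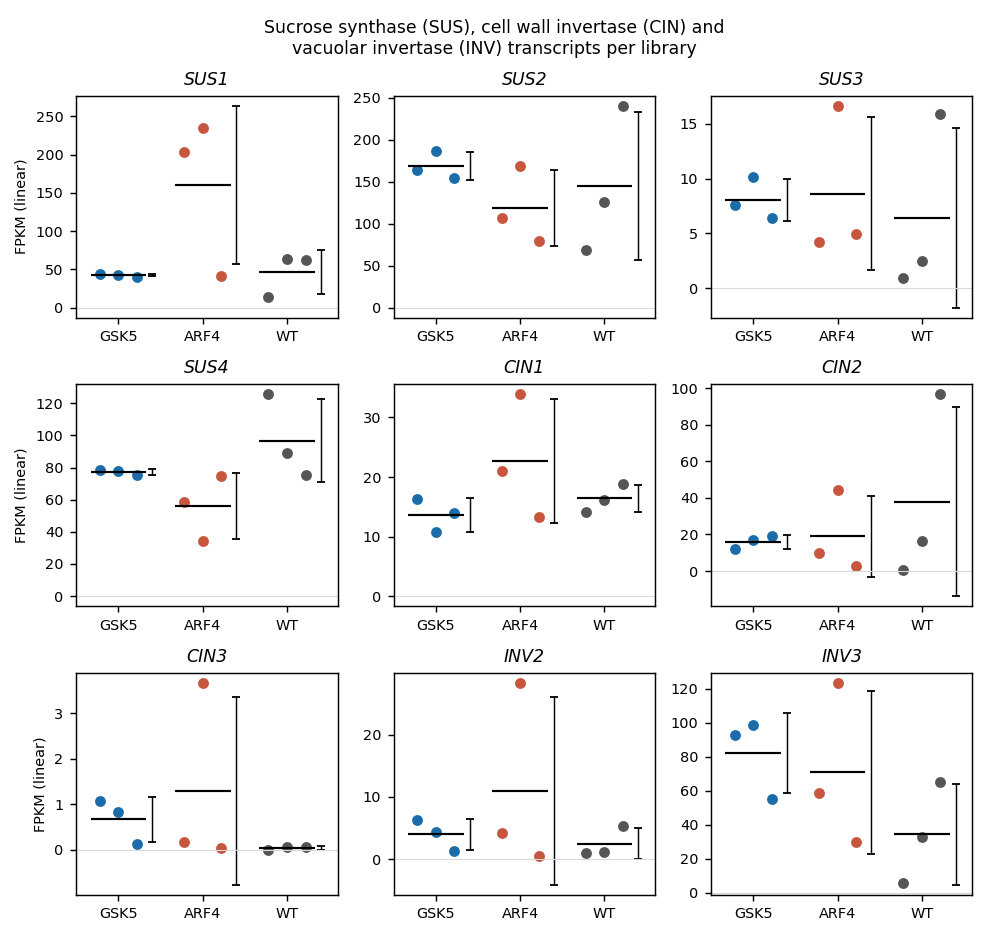
FPKM of each of the 9 genes (linear axis, a separate scale per gene) in GSK5-edited, ARF4-edited and WT caryopses; each point is a library, in the order of replicates 1 to 3, the horizontal line is the mean and the bar beside it the SD (n = 3). GSK5 libraries lie close together for SUS1 (40.6 to 44.1 FPKM), whereas ARF4 libraries run from 41.7 to 234.8 and WT libraries from 13.6 to 63.6.

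Of the 9 genes, 8 reached the minimum for testing, which was 1 FPKM in no fewer than 3 libraries; CIN3 did not. None was called in any comparison by limma at an adjusted p under 0.05. GSK5 against WT gave 0 calls among the 8, where 2.15% of all genes tested were called (1.45% higher and 0.701% lower). In that comparison 0 of the 8 had an unadjusted p under 0.05, where 18.5% of all genes did, and 0 had groups without overlap, where 30.1% did (18.3% higher and 11.8% lower). Their adjusted p-values ran from 0.302 to 0.921, and 6 of the 8 had a log2 change above 0, as 63.1% of all genes had.

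ARF4 against WT likewise gave 0 calls among the 8, where 3.32% of all genes tested were called (1.3% higher and 2.02% lower). SUS4 was the 1 gene with an unadjusted p under 0.05, where 24.9% of all genes had one, and the 1 whose groups did not overlap, where 23.7% did not (11.1% higher and 12.6% lower). Adjusted p-values ran from 0.134 to 0.963, and 5 of the 8 log2 changes were above 0, beside 55.3% of all genes. GSK5 against ARF4 gave 0 calls among the 8, where 0.483% of all genes were called (0.308% higher and 0.175% lower). There 0 had an unadjusted p under 0.05, where 13.8% of all genes did, and SUS4 alone had groups without overlap, where 26.3% did (18.3% higher and 8.02% lower). Adjusted p-values ran from 0.405 to 0.967, and 5 of the 8 log2 changes were above 0, beside 57% of all genes.

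The median log2 change of the 8 was 0.35 for GSK5 against WT, beside 0.11 over all genes tested. It was 0.56 for ARF4 against WT, beside 0.05, and 0.26 for GSK5 against ARF4, beside 0.05. Both comparisons with WT share the same WT libraries. With 8 genes and shares of calls this low among all genes, a count of 0 says little about the family.

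Pooled over the 3 groups, the spread within groups was wide for several of the genes. The within-group SD on the log2(FPKM + 1) scale was 2.04 for CIN2, and 0.124% of all genes tested had a larger one. It was 1.44 for INV2, 1.17 for INV3, 1.09 for SUS3 and 1.06 for SUS1, each exceeded by at most 3.19% of genes. SUS2 (0.61), CIN1 (0.42) and SUS4 (0.39) were steadier, beside a median of 0.26 over all genes tested. The groups contributed unequally. From lowest to highest library, CIN2 spanned 1.62-fold in GSK5-edited, 14.95-fold in ARF4-edited and 197.4-fold in WT grain. SUS1 spanned 1.09-fold, 5.64-fold and 4.66-fold. The GSK5 span was the narrowest for every gene tested but CIN1 (1.52-fold, against 1.33-fold in WT). Each SE uses the pooled spread, so that of GSK5 against WT also carries the spread of the ARF4 libraries.

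**Figure D2:**
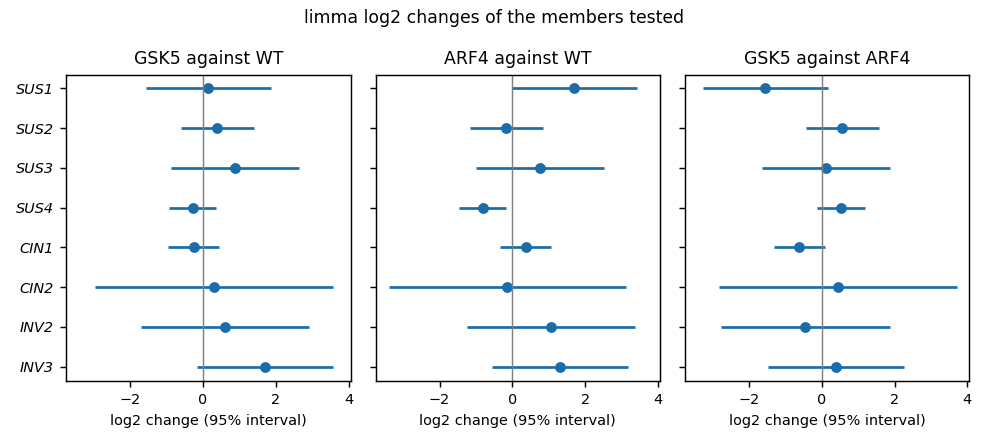
Log2 change of the 8 genes tested (points) with its 95% interval from limma (lines) in each of the 3 comparisons between genotypes, on the log2(FPKM + 1) scale. Intervals are widest for CIN2, and SUS4 in ARF4 against WT, from -1.47 to -0.16, is the interval that lies clear of 0.

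Among the sucrose synthases, SUS1 and SUS3 showed the widest contrast between single libraries, 17.23-fold and 17.15-fold. SUS1 (LOC_Os03g28330), an isoform known from elongating tissues, had 44.1, 42.8 and 40.6 FPKM in GSK5-edited grain, 203.7, 234.8 and 41.7 in ARF4-edited grain and 13.6, 63.6 and 62.8 in WT. ARF4 replicates 1 and 2 stood far above every other library, while ARF4 replicate 3 lay among the GSK5 and WT libraries, so the groups overlapped. The mean was 160.1 ± 104 FPKM in ARF4-edited grain and 46.7 ± 28.6 in WT (SD, n = 3). This log2 change was 1.7, with SE 0.75 and a 95% interval from -0.01 to 3.41 (limma adjusted p = 0.204). Leaving out WT replicate 3 and ARF4 replicate 3, picked from earlier results of these data for their likeness to the GSK5 group, gave 2.84 (adjusted p = 0.0262), but 21.7% of all genes tested were called in that setting. Leaving out WT replicate 1 and ARF4 replicate 2, likewise picked from the data as the ends of the first principal component, gave 0.54 (adjusted p = 0.648). Every WT library lay below every ARF4 library on that component. For genes that follow it, here and below, this choice favours narrower differences from WT. Leaving out the third replicates favours wider differences. Neither fit is therefore an independent check of a change. In GSK5 against WT the log2 change of SUS1 was 0.15 (SE 0.75, adjusted p = 0.921), and in GSK5 against ARF4 it was -1.55 (SE 0.75, adjusted p = 0.405).

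SUS4 (LOC_Os03g22120), one of the isoforms reported from rice caryopses, ran the other way. Its level was 78.3, 78 and 75.4 FPKM in GSK5-edited, 58.6, 34.1 and 74.8 in ARF4-edited and 125.6, 88.8 and 75.6 in WT grain. Every ARF4 library lay below every WT library, although ARF4 replicate 3 and WT replicate 3 were nearly level; in this comparison 12.6% of all genes tested were lower without overlap. The log2 change in ARF4 against WT was -0.82 with SE 0.29 (adjusted p = 0.134), and -1.22 (adjusted p = 0.0289) without the third replicates of both groups, where 21.7% of all genes were called. Without WT replicate 1 and ARF4 replicate 2 it was -0.3 (adjusted p = 0.245). In GSK5 against WT it was -0.29 (95% interval from -0.94 to 0.37), and every GSK5 library lay above every ARF4 library, with a log2 difference of 0.53 (SE 0.29, adjusted p = 0.46), where 18.3% of all genes were higher without overlap.

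SUS2 (LOC_Os06g09450), an isoform found in many rice tissues, had 164.2, 186.8 and 154.2 FPKM in GSK5-edited, 107.2, 168.5 and 79.5 in ARF4-edited and 68.3, 125.6 and 240.6 in WT grain. WT libraries alone spanned the range of both edited groups. GSK5 against WT gave a log2 change of 0.39 (95% interval from -0.61 to 1.4). ARF4 against WT gave -0.17 (from -1.18 to 0.83), and 0.57 was the value for GSK5 against ARF4 (from -0.43 to 1.57). SUS3 (LOC_Os07g42490), the isoform typical of rice endosperm, was low, at 7.62, 10.2 and 6.43 FPKM in GSK5-edited, 4.26, 16.6 and 4.99 in ARF4-edited and 0.97, 2.47 and 15.9 in WT grain. ARF4 replicate 2 and WT replicate 3 were the high libraries, at similar levels in groups of different genotype. Its log2 change was 0.88 (SE 0.77) in GSK5 against WT, 0.76 (SE 0.77) in ARF4 against WT and 0.12 (SE 0.77) in GSK5 against ARF4.

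The isoform makeup of sucrose synthase transcripts differed between libraries of the same genotype in ARF4-edited and WT grain. It varied little in GSK5-edited grain. Summed over the 4 genes the level was 296.2 ± 20.6 FPKM in GSK5-edited, 342.9 ± 129 in ARF4-edited and 294.6 ± 94 in WT grain (SD, n = 3). SUS2 made up 55.7% to 58.8% of it in GSK5-edited grain. In ARF4-edited grain SUS1 held 54.5%, 51.7% and 20.7% in replicates 1, 2 and 3. WT replicate 1 stood apart with 60.3% from SUS4 and 6.54% from SUS1, against 19.2% and 15.9% in WT replicate 3.

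**Figure D3:**
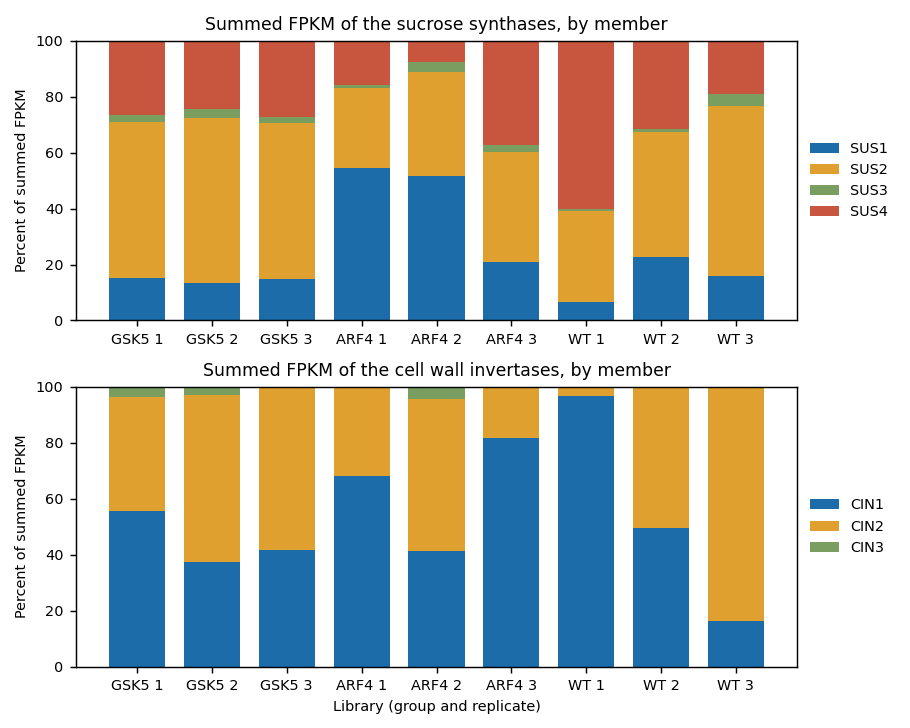
Percent of the summed FPKM of the sucrose synthases (upper panel) and of the cell wall invertases (lower panel) held by each gene, per library, from GSK5 replicate 1 at the left to WT replicate 3 at the right. SUS4 ranges from 7.52% in ARF4 replicate 2 to 60.3% in WT replicate 1, and CIN1 from 16.3% in WT replicate 3 to 96.7% in WT replicate 1.

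Of the cell wall invertases, CIN2 varied most. CIN2 (LOC_Os04g33740) had 11.9, 17 and 19.3 FPKM in GSK5-edited, 9.65, 44.3 and 2.96 in ARF4-edited and 0.49, 16.4 and 96.7 in WT grain. The WT libraries held both the lowest and the highest value of the series, 197.4-fold apart, and enclosed all 6 edited libraries. Its log2 change was 0.3 in GSK5 against WT (95% interval from -2.97 to 3.57), -0.14 in ARF4 against WT (from -3.4 to 3.13) and 0.44 in GSK5 against ARF4 (from -2.83 to 3.7); the sign turned when single libraries were left out. CIN1 (LOC_Os02g33110), another cell wall isoform, was steadier, at 16.3, 10.7 and 14 FPKM in GSK5-edited, 21.1, 33.9 and 13.3 in ARF4-edited and 14.2, 16.2 and 18.8 in WT grain. Its log2 change was -0.26 (SE 0.31) in GSK5 against WT, 0.36 (SE 0.31) in ARF4 against WT and -0.62 (SE 0.31) in GSK5 against ARF4, with adjusted p-values of 0.644, 0.473 and 0.415.

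CIN3 (LOC_Os04g33720) was near the lower end of the scale, at 1.08, 0.82 and 0.12 FPKM in GSK5-edited, 0.17, 3.67 and 0.04 in ARF4-edited and 0, 0.06 and 0.06 in WT grain. All edited libraries but ARF4 replicate 3 lay above WT. With no filter on low values CIN3 had a log2 change of 0.64 (SE 0.54, adjusted p = 0.606) in GSK5 against WT and 0.78 (SE 0.54, adjusted p = 0.47) in ARF4 against WT. CIN2 and CIN3 are neighbours on chromosome 4, with no annotated protein-coding gene between them in RefSeq (assembly ASM3414082v1). How reads shared by similar copies were assigned is not given in the sources used here, so values of close relatives are uncertain.

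INV3 (LOC_Os02g01590), listed as a vacuolar invertase, carried 81.3% to 98.2% of the vacuolar invertase FPKM. It had 92.9, 98.5 and 54.9 FPKM in GSK5-edited, 58.8, 123.4 and 29.9 in ARF4-edited and 5.75, 32.7 and 64.8 in WT grain. Of the GSK5 libraries 2 lay above all WT libraries and the third between WT replicates 2 and 3. The mean was 82.1 ± 23.7 FPKM in GSK5-edited and 34.4 ± 29.6 in WT grain (SD, n = 3). The log2 change was 1.71 with SE 0.82 (95% interval from -0.17 to 3.58, adjusted p = 0.302). Without WT replicate 1 and ARF4 replicate 2 it was 0.77 (adjusted p = 0.426). Without the third replicates of WT and ARF4 it was 2.42 (adjusted p = 0.0621), where 15.3% of all genes tested were called. In ARF4 against WT the change was 1.31 (SE 0.82, adjusted p = 0.339). It was -0.13 (adjusted p = 0.892) without WT replicate 1 and ARF4 replicate 2. Without the third replicates it was 2.52 (adjusted p = 0.0597), where 21.7% of all genes were called. As for SUS1, both pairs of libraries were picked from the data. The former choice favours narrower and the latter wider differences from WT. In GSK5 against ARF4 the log2 change of INV3 was 0.39 (SE 0.82, adjusted p = 0.873).

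INV2 (LOC_Os04g45290), the other vacuolar isoform, had 6.29, 4.35 and 1.32 FPKM in GSK5-edited, 4.12, 28.3 and 0.54 in ARF4-edited and 0.98, 1.06 and 5.3 in WT grain. ARF4 replicate 2 was far above the rest. Its log2 change was 0.61 (SE 1.01) in GSK5 against WT, 1.06 (SE 1.01) in ARF4 against WT and -0.45 (SE 1.01) in GSK5 against ARF4. The names INV2 and INV3 were not found in the RefSeq gene table and rest on the list of loci alone. All 5 invertase genes together made up 30.4%, 29.3% and 24.5% of the summed FPKM of the 9 genes in GSK5-edited grain, 20.1%, 34% and 18.9% in ARF4-edited grain and 9.32%, 19.1% and 32% in WT.

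Most pairs of these genes were positively correlated across the 9 libraries. WT replicate 1 was the lowest library for 6 of the 9 genes and the highest for SUS4, and ARF4 replicate 2 was the highest for 6 and the lowest for SUS4. Of 28 pairs among the 8 genes tested, 21 had a Pearson r above 0 on the log2(FPKM + 1) scale, with a median of 0.59. For SUS2 and CIN2, r was 0.927 over 9 libraries (exact permutation p = 0.00035, adjusted over the 28 pairs 0.0098), with a Spearman rho of 0.883 (exact p = 0.00307, adjusted 0.0287). This r was 0.779 without the 2 libraries farthest from the median of SUS2, and the deviations from the group means had r of 0.98. SUS3 and INV3 had r of 0.869 (exact p = 0.00161, adjusted 0.0165) and rho of 0.867 (exact p = 0.00451, adjusted 0.0316), with 0.664 without the 2 farthest libraries and 0.862 for the deviations from the group means. SUS1 and SUS4 had r of -0.893 (exact p = 0.00177, adjusted 0.0165) but rho of -0.483 (exact p = 0.194, adjusted 0.339); r was -0.812 without the 2 farthest libraries and -0.835 for the deviations from the group means. In all, 6 of the 28 pairs had an adjusted exact p under 0.05 for r; among them SUS2 and INV3 had r of 0.804, and 0.456 without the 2 farthest libraries. Of all 23385 genes tested, 169 had an r with SUS2 at least that of CIN2. The share of other gene pairs that would pass, or that have an r above 0, was not computed. These counts therefore show nothing particular to the 8 genes.

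**Figure D4:**
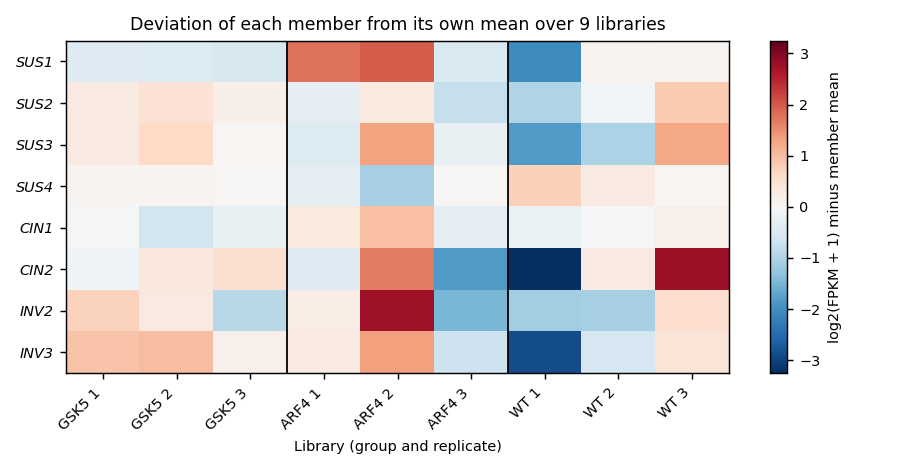
Deviation of each tested gene from its own mean over the 9 libraries, on the log2(FPKM + 1) scale, with the libraries in columns and the GSK5, ARF4 and WT groups divided by lines. Red marks levels above the mean and blue levels below it; WT replicate 1 is below the mean for 7 of the 8 genes and above it for SUS4, and ARF4 replicate 2 shows the opposite signs.

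The levels were also set against the main axis of variation in the data set. WT replicate 1 and ARF4 replicate 2 lay at the ends of the first principal component of all genes tested, which carried 36.2% of variance. The WT libraries scored -104.3, -52.82 and -0.33 on it, in the order of replicates. The GSK5 libraries scored 19.55, 26.55 and 16.53 and the ARF4 libraries 38.83, 53.85 and 2.09. Every WT library thus lay below every edited library, so following this axis and differing from WT cannot be told apart. INV3 had r of 0.912 with it, SUS3 0.797, SUS1 0.726 and SUS4 -0.822, whereas INV2 had 0.644, CIN2 0.583, SUS2 0.563 and CIN1 0.386; the median absolute r over all genes tested was 0.574. What the axis stands for was not tested.

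Among 53 other genes of the sucrose, sugar phosphorylation and tissue marker lists, those with patterns most like SUS2 over the 9 libraries were ISA1, an isoamylase of starch synthesis (r = 0.93, rho = 0.933), and CIN2. The closest to CIN2 were SUS2 and SUS6, a further sucrose synthase gene (r = 0.883, rho = 0.917), and the closest to INV3 was the locus LOC_Os09g38030, entered as UGP1 (r = 0.921, rho = 0.967). The genes were picked for their r, so no test is given. Among all genes tested, 156 had an r with SUS2 at least that of ISA1, and 544 an r with INV3 at least that of LOC_Os09g38030.

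Other genes of sucrose turnover were taken from lists of further sucrose synthases, cell wall and neutral invertases, hexokinases, fructokinases, UDP-glucose pyrophosphorylases and sucrose phosphate synthases. Of the 35 loci 29 were tested. None was called in GSK5 against WT, where 5 of the 29 had an unadjusted p under 0.05, beside 18.5% of all genes. None was called in GSK5 against ARF4, where 6 had one, beside 13.8%. In ARF4 against WT 1 rose and none fell, and 5 had an unadjusted p under 0.05, beside 24.9%. The median log2 change was 0.14 for GSK5 against WT and 0.11 for ARF4 against WT, while that for GSK5 against ARF4 was 0.08. The gene that rose was CIN7, a further member of the cell wall invertase family. CIN7 (LOC_Os09g08072) had 22.1, 24.7 and 22.7 FPKM in GSK5-edited, 39.6, 37.3 and 28.3 in ARF4-edited and 16.6, 19.1 and 19.4 in WT grain. No ARF4 library overlapped a GSK5 or WT library. Of all genes tested, 11.1% were higher without overlap in ARF4 against WT. In GSK5 against ARF4, 8.02% were lower without overlap. The log2 change of CIN7 in ARF4 against WT was 0.89 with SE 0.14 (adjusted p = 0.0184), where 1.3% of all genes tested were called higher. CIN7 was no longer called when the third genotype was left out of the fit (adjusted p = 0.123), with array weights per group (0.0635) and without ARF4 replicate 1 (0.0884), WT replicate 1 (0.0552) or WT replicate 2 (0.069), while the log2 change stayed between 0.77 and 1.07. CIN7 had a log2 change of 0.32 (SE 0.14, adjusted p = 0.274) in GSK5 against WT and -0.57 (SE 0.14, adjusted p = 0.147) in GSK5 against ARF4.

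The most abundant genes of the other lists gave no call. FRK2, a fructokinase that phosphorylates the fructose released by sucrose cleavage, had 84.8, 91.3 and 90.5 FPKM in GSK5-edited, 180.1, 223.7 and 47.1 in ARF4-edited and 24.8, 78.2 and 131 in WT grain. As for SUS1, ARF4 replicates 1 and 2 were the highest libraries and WT replicate 1 the lowest. Its log2 change in ARF4 against WT was 0.95 (SE 0.69, adjusted p = 0.408), and 2.16 (adjusted p = 0.0275) without the third replicates of both groups, where 21.7% of all genes were called. Without WT replicate 1 and ARF4 replicate 2 the sign of FRK2 turned, to -0.13 (adjusted p = 0.914). SPS8, a sucrose phosphate synthase of the opposite, sucrose-making reaction, was nearly level, at 54.3 ± 1.43 FPKM in GSK5-edited, 49.9 ± 5.17 in ARF4-edited and 56.7 ± 1.26 in WT grain (SD, n = 3). SUS6 averaged 2.31 ± 0.146 FPKM in GSK5-edited, 2.16 ± 0.572 in ARF4-edited and 2.19 ± 0.459 in WT grain. The locus entered as UGP1 averaged 130.1 ± 10.8 FPKM in GSK5-edited, 123.2 ± 22.5 in ARF4-edited and 90.6 ± 31.1 in WT grain, with adjusted p-values of 0.256 and 0.246 against WT. Without WT replicate 3 these were 0.0293 for GSK5 and 0.0342 for ARF4, where 11.6% and 15% of all genes were called. Without WT replicate 1 they were 0.577 for GSK5 (log2 change 0.39) and 0.519 for ARF4 (log2 change 0.3). LOC_Os02g34560, entered as a neutral invertase, averaged 39 ± 5.4, 46.3 ± 11.8 and 34 ± 8.73 FPKM in GSK5-edited, ARF4-edited and WT grain.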

How the data were processed

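Per the labels' protocols, grain RNA was isolated in Trizol and sequenced from TruSeq libraries. The authors deposited FPKM values per gene model, rounded to 2 decimals. The submitters' processing notes name Bowtie 0.12.2 and the mouse build mm8, which cannot describe rice gene models; the sources used here do not name the rice build, annotation or quantifier. Absolute depth is unknown; relative depth was read from the steps of values between 0.1 and 0.5 FPKM.

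Genes with at least 1 FPKM in at least 3 of 9 libraries (23385) were fitted as log2(FPKM + 1) in one limma model (limma 3.58.1, R 4.3.3, mean-variance trend) with a mean per group; the pseudocount understates changes of low genes. P-values were adjusted by Benjamini-Hochberg over all genes tested, and calls are adjusted p-values under 0.05. The fit was also run on simulated data with independent noise and, for each gene, the same SD in every group. That run says nothing about unequal spreads between groups or outlying libraries. Correlations used exact permutation, two-sided, over the 9 libraries without regard to genotype. A single-gene exact test of 3 against 3 libraries cannot go below p = 0.1 and was not used. Tables and plots used Python 3.11.15, pandas 2.3.3, numpy 2.4.6, scipy 1.17.1 and matplotlib 3.10.9.

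The 9 genes, the other lists and the tests were chosen with earlier results of these data known. Named in full were the 9 genes; of the other pathway genes, any that was called and the most abundant of each list; and the genes of highest r with SUS2, CIN2 and INV3. Loci other than the 9 were entered from general knowledge and not from a database: all 66 loci were in the table, and 34 symbols (7 of the 9) matched a RefSeq gene on the chromosome given by the locus. Alternatives covered pseudocount, filter, scaling, groups in the fit, spread model, replicate block and left-out libraries.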

Additional observations from a re-analysis of the deposited data

How the results depend on the processing

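None of the 8 genes tested was called in any comparison under the other pseudocounts, filters, scalings, spread models, the fit over 2 groups or leaving out 1 library (0 to 0 calls), with 1 exception among all alternatives: leaving out WT replicate 3 and ARF4 replicate 3 together gave 2 calls in ARF4 against WT, SUS1 and SUS4, where 21.7% of all genes tested (5069) were called. The sums per class moved by less than 1 SD under median-of-ratios scaling. Over all genes the calls ranged with the setting from 135 to 3586 in GSK5 against WT (502 as reported), from 82 to 5069 in ARF4 against WT (776) and from 17 to 912 in GSK5 against ARF4 (113); the cause was not tested. The median log2 change of all genes in GSK5 against WT was 0.11, against 0.01 with median-of-ratios scaling and -0.01 with quantile normalization.

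Signs turned for uncalled changes. In GSK5 against WT, log2(FPKM + 5) gave CIN2 -0.13; SUS6 gave -0.015 with median-of-ratios scaling and -0.17 with quantile normalization. Without WT replicate 1 and ARF4 replicate 2, a setting chosen after seeing the data, this comparison gave SUS1 -0.56, SUS2 -0.05, CIN2 -1.3, SUS6 -0.06 and FRK2 -0.19, and ARF4 against WT gave SUS3 -0.45, CIN1 -0.054, INV2 -0.36, INV3 -0.13 and FRK2 -0.13; INV2 in GSK5 against ARF4 was 0.68. In ARF4 against WT, log2(FPKM + 0.1) gave CIN2 0.16. Without WT replicate 3 and ARF4 replicate 3 it gave SUS2 0.53, CIN2 2.11 and SUS6 0.22, and GSK5 against ARF4 gave SUS3 -0.11, CIN2 -0.39, INV3 -0.099, SUS6 -0.07 and UGP1 -0.03. Both settings that left out a pair of libraries were picked from the data, and the choice itself favours narrower or wider differences from WT. The cause was not tested.

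Leaving out 1 library at a time turned further signs, with these ranges of the log2 change. In GSK5 against WT it ran for CIN2 from -1.3 to 1.72, FRK2 from -0.19 to 0.99, SUS1 from -0.56 to 0.51, SUS2 from -0.051 to 0.85, SUS6 from -0.056 to 0.15. In ARF4 against WT it ran for CIN2 from -1.73 to 1.28, INV2 from -0.072 to 2.05, SUS2 from -0.62 to 0.28, SUS6 from -0.14 to 0.13. In GSK5 against ARF4 it ran for CIN2 from -0.39 to 1.37, INV2 from -1.45 to 0.68, INV3 from -0.099 to 0.91, SUS3 from -0.202 to 0.67, SUS6 from -0.071 to 0.19, UGP1 from -0.030 to 0.23.

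No pairing of the libraries by replicate number was seen. Deviations from the group means of libraries with the same number had r between -0.349 and 0.083, and 0 of 9 libraries correlated best with one of its own number. With so few libraries per group this check cannot exclude a pairing. A replicate block in the fit gave 0 calls among the 8 genes in each comparison and, over all genes, 239 calls for GSK5 against WT and 219 for ARF4 against WT, with 30 for GSK5 against ARF4; CIN7 in ARF4 against WT then had an adjusted p of 0.0608. CIN3 was below the filter and was tested only with no filter, where it was not called.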
